A study of Mus musculus with 2 samples.

Results

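Start-distal intronic CTCF peaks of coding genes shorter than 300 kb were described in the stomach of newborn mice. A peak was included when its summit lay inside a protein-coding gene of GENCODE release M21, outside every annotated exon, more than 10 kb from every protein-coding transcription start site (TSS) and in no coding gene of 300 kb or more, on the 19 autosomes. The rule used position alone and no measured level. It held for 13842 of the 74293 peaks in the authors' optimal list, 18.6% of it. CTCF bound to chromatin was measured by ChIP-seq, in which DNA fragments precipitated with an antibody are sequenced and mapped. The study has 1 group of 2 replicates, both stomach tissue of the strain B6NCrl at 0 days after birth, with an antibody to CTCF and with sex not collected. Both replicates carry the same donor and the same tissue sample in the labels, so the spread between them may be technical, and no test between conditions was possible. Whole stomach mixes epithelium, muscle, nerve and blood cells, and no RNA was measured, so the tissue could not be checked against its marker genes.

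CTCF is a zinc-finger protein that binds a long DNA motif with a fixed direction. It stops cohesin, the ring complex that extrudes chromatin loops, and loops are most often anchored at a pair of motifs that point towards each other. An intron is transcribed with its gene and removed from the RNA by splicing, so a site there can lie within a unit that is both transcribed and folded.

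The sequences below show the motif at the strong and the weak end of the intronic peaks, so that the values that follow can be read against actual sites. They are the best motif matches of the 6 strongest intronic peaks with a motif and of the 4 weakest found in both replicates, outside chromosomes 1 and 18, read from mm10 on the strand that carries the motif. Capitals mark the 19 positions of the match and lower case the 10 bases on either side. The motif matrix was built from the strongest chromosome 1 peaks of the same list, and its commonest letters read TGGCCACCAGGGGGCACTA. The strong sites lie in Fam129b (chr2:32912619-32912657, minus strand), Sntb2 (chr8:107002649-107002687, minus strand), Gm49486 (chr15:79243360-79243398, plus strand), 2900026A02Rik (chr5:113099764-113099802, plus strand), Col18a1 (chr10:77130722-77130760, plus strand) and Emid1 (chr11:5115126-5115164, plus strand).
Fam129b: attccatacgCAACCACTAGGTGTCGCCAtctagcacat
Sntb2: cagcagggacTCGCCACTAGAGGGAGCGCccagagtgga
Gm49486: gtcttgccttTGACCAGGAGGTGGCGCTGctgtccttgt
2900026A02Rik: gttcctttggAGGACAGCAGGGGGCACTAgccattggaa
Col18a1: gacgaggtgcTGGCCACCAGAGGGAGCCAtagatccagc
Emid1: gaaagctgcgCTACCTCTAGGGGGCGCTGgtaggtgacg
The weak sites lie in Fyn (chr10:39480536-39480574), Mmp20 (chr9:7642448-7642486), Wipf2 (chr11:98876450-98876488) and Tmem178 (chr17:80976049-80976087), all on the minus strand.
Fyn: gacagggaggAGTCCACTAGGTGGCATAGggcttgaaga
Mmp20: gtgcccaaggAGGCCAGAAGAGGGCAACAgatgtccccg
Wipf2: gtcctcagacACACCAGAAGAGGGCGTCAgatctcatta
Tmem178: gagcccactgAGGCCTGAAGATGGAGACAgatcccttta
The number of letters shared with the commonest ones overlapped between the sets, at 11 to 16 of 19 in the strong sites and 9 to 13 in the weak ones. The log-odds score of the match also overlapped, at 15.8 to 20.6 in the strong sites and 10.7 to 17.6 in the weak ones. Peak signal did not overlap, since it chose them: it was 612 to 677 in the strong sites and 22.05 to 22.31 in the weak ones. In Mmp20, Wipf2 and Tmem178 the letters CAGAT run across the end of the match, a feature described further below.

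Peak signal is column 7 of the deposited peak lists, the value the authors' peak caller gave each peak. Its scale is not given in the sources used here, and it is compared only within a list. Over the 13842 intronic peaks it ran from 5.09 to 677, with a median of 75.7 and quartiles of 35.5 and 223. The median was 67.0 in the 4935 start-distal intronic peaks of genes of 300 kb or more, and 85.3 in the 22313 start-distal peaks outside coding genes. The strongest quintile of the whole list took 19.3% of the intronic peaks of shorter genes, against 16.6% of those of longer genes and 22.8% of those outside genes. In the relaxed lists of the single replicates, each read to its strongest peaks to the length of the optimal list, the order was the same. Peaks that met the rule in the replicate 1 list had a median signal of 44.5, against 40.7 in longer genes and 50.4 outside genes. In the replicate 2 list the medians were 31.4 in shorter genes, 27.8 in longer genes and 35.9 outside genes. By chromosome, the median of shorter genes was above that of longer genes on 14 of 19 autosomes. It was above that outside genes on 4 of 19. The order to peaks outside genes changed with base composition. In 100 kb windows with a GC content below 38% the median was 104 in shorter genes and 70.5 outside genes. At 38 to 40% it was 92.3 and 87.4. In each band from 40% up it was lower than outside genes, at 78.2 and 83.1 in windows of 46% or more.

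Most of these peaks were found in both libraries. A summit within 100 bp was present in both replicate lists for 11710 of the 13842, or 84.6% (exact 95% interval 84.0 to 85.2). The share was 82.9% in longer genes and 85.3% outside genes. A further 836 peaks had a partner in replicate 1 alone and 786 in replicate 2 alone, and 510 had none in either. Median signal was 23.3 in the 1622 peaks found in 1 replicate and 103 in those found in both. All intervals on shares of peaks cover counting error only, because neighbouring peaks are not independent and the 2 libraries share their source. A summit of the authors' conservative list lay within 100 bp of 12439 of the peaks. That list itself held 13577 peaks that met the rule.

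Shorter-gene introns held 2.04 times as many peaks per Mb as longer-gene introns and 2.03 times as many as sequence outside coding genes. Their 380.4 Mb of eligible sequence carried 36.4 peaks per Mb, against 17.8 per Mb in the 277 Mb of longer-gene introns and 17.9 per Mb in the 1248 Mb outside coding genes. The replicate 1 list gave 36.1 per Mb, against 17.3 in longer genes and 17.6 outside genes. The replicate 2 list gave 36.9, 18.0 and 18.0 per Mb in the same order of sequence kinds. The density of shorter-gene introns was the higher one on 19 of 19 autosomes in both comparisons, and ran from 28.3 per Mb on chromosome 3 to 46.02 per Mb on chromosome 11. Peaks also lay closer to a neighbour than in these 2 kinds of sequence, at a median of 6954 bp to the nearest other optimal peak. It was 10737 bp in longer genes and 7939 bp outside genes, but 5199 bp over all other optimal peaks.

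**Figure D1:**
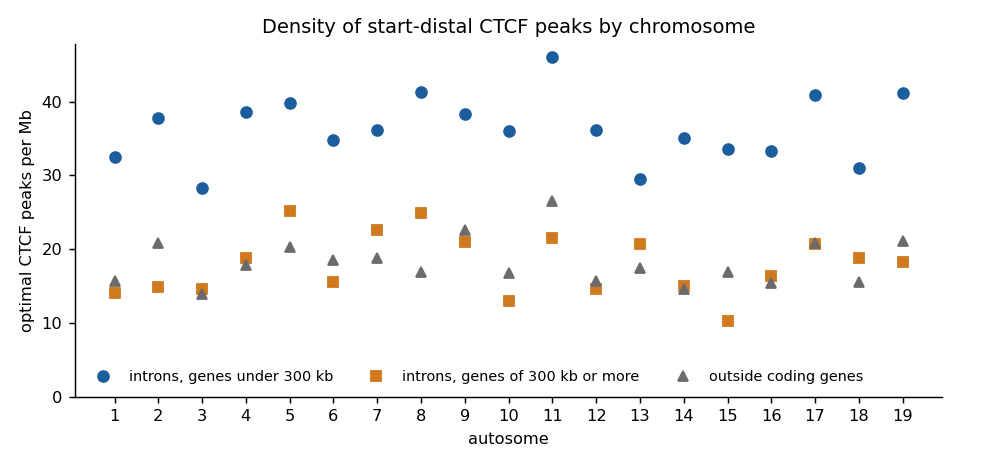
Optimal CTCF peaks per Mb of eligible start-distal sequence (y axis) on each autosome (x axis), with 1 point per kind of sequence. The points for introns of genes under 300 kb sit between 28.3 and 46.02 per Mb and are the highest on all 19 autosomes.

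Base composition moved with this difference. In 100 kb windows with a GC content of 46% or more, shorter-gene introns held 60.4 peaks per Mb, against 51.7 in longer-gene introns and 59.98 outside genes. In windows of 40 to 42% GC the densities were 23.8 per Mb in shorter genes, 16.8 in longer genes and 14.4 outside genes. Below 38% they were 10.8, 5.29 and 3.20 per Mb in the same order. The difference to sequence outside genes was thus largest, as a ratio, in GC-poor windows and nearly absent in GC-rich ones, while the difference to longer genes was present in every band. Of the shorter-gene introns, 42.3% of the sequence lay in windows of 44% GC or more. The windows were chosen after the overall densities were known, and the part of base composition in the difference was not tested.

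**Figure D2:**
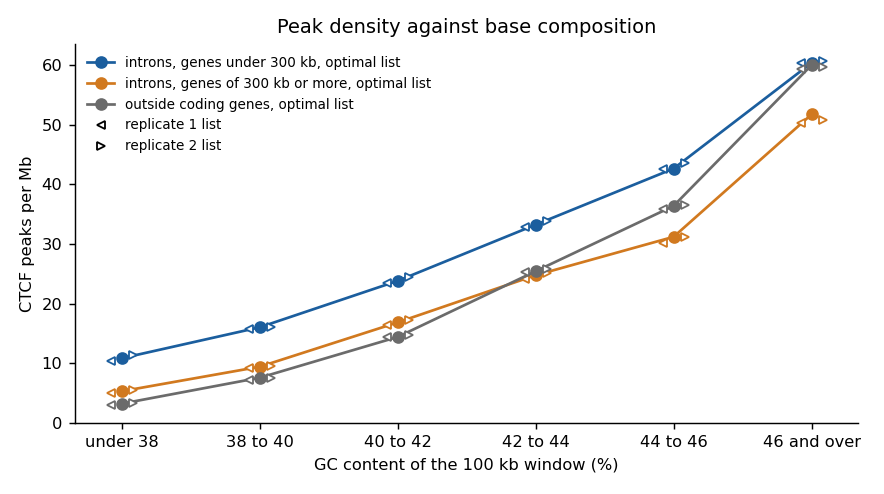
CTCF peaks per Mb (y axis) against the GC content of the surrounding 100 kb window (x axis) for the 3 kinds of start-distal sequence; filled circles joined by lines are the optimal list and open triangles the single replicate lists. In the band of 46% and over, introns of genes under 300 kb (60.4 per Mb) and sequence outside genes (59.98 per Mb) meet, and in every band below it the introns of genes under 300 kb are the higher.

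The site at the summit was mostly the CTCF motif. Outside chromosome 1, which supplied the matrix, 9443 of 12871 intronic peaks had a match within 50 bp of the summit, or 73.4% (exact 95% interval 72.6 to 74.1). The score needed was the one that 1% of 50000 background windows reach. A window 1 kb away had a match for 1.67% of the same peaks. The share was 69.8% (68.4 to 71.1) in longer genes, 73.7% (73.1 to 74.3) outside genes and 64.4% over all other optimal peaks. Of the matches, 78.2% lay within 10 bp of the summit. Median signal was 106 with a motif and 40.6 in the 3428 peaks without one.

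Within a quintile of the signal, intronic and extragenic peaks carried the motif about equally often. From the strongest to the weakest quintile, the motif share of shorter-gene introns was 93.8, 84.7, 72.0, 64.5 and 52.2%. Outside genes it was 93.4, 84.2, 72.8, 62.3 and 50.4%, and the exact intervals overlapped in every quintile. The share found in both replicates was 99.96, 100 and 99.9% in the 3 strongest quintiles, 94.4% in the fourth and 26.1% in the weakest.

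**Figure D3:**
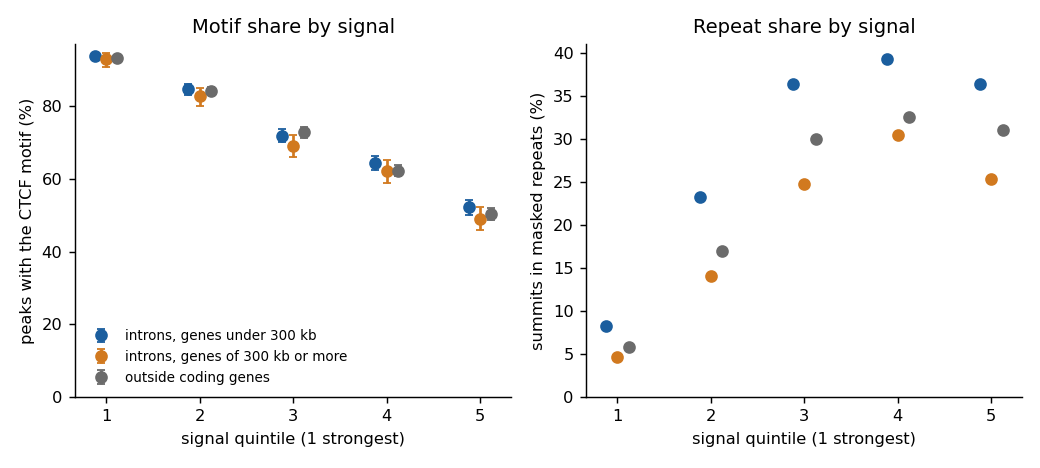
Share of peaks with a CTCF motif (left, y axis in percent, with exact 95% binomial intervals) and share with the summit in a repeat-masked base (right, y axis in percent) by quintile of the optimal list's signal (x axis, 1 strongest). The motif share runs from 93.8% to 52.2% in introns of genes under 300 kb and the repeat share is highest in the fourth quintile, at 39.3%.

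Summits in repeats were more frequent in these introns. Repeats were read from the soft-masked (lower-case) letters of the reference alone, without a repeat annotation. The summit lay in soft-masked sequence for 28.9% of the peaks, against 20.7% in longer genes and 22.5% outside genes. Masked bases of shorter-gene introns held 36.2 peaks per Mb, close to the 36.5 per Mb of their unmasked bases. In longer-gene introns masked bases held 12.9 per Mb against 19.8 in unmasked ones, and outside genes 10.5 against 22.4. The 4002 peaks in masked sequence had a lower median signal, 51.5 against 99.6 for the 9840 in unmasked sequence, and more often a motif, 88.6% against 67.1%.

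A run of letters at the end of the motif moved with the repeats. CAGAT starting at position 18 of the match, as in the Mmp20, Wipf2 and Tmem178 sites printed above, was present in 1319 of the 9443 intronic motifs, or 14.0% (exact 95% interval 13.3 to 14.7). The share was 10.1% (9.06 to 11.2) in longer genes and 9.76% (9.29 to 10.2) outside genes. Of the 1319, 92.9% had the summit in masked sequence. With these letters the median signal was 48.6, against 130 without them. Among motifs with the summit in masked sequence the gap was smaller, at 48.4 against 59.2. In unmasked sequence it was 53.7, over 94 motifs, against 184. The share with the letters was 2.15% in the strongest quintile and 25.4% in the weakest. Peaks outside genes were alike, with medians of 49.2 and 151 and shares of 1.39% and 19.5%. B2 elements, short interspersed repeats of rodents, are known to carry CTCF sites; the repeat family of each masked base was not annotated in the files used here. Of the peaks of this form in principal introns with the summit in masked sequence, chromosomes 1 and 18 left out, the strongest lay in intron 3 of 6 of Nkain1, at signal 484 (262 in the replicate 1 list and 223 in the replicate 2 list), and its site is chr4:130534186-130534224 on the plus strand, printed to show the letters at a strong peak.
Nkain1: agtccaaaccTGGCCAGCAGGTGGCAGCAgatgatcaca

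Along the host gene, peaks were denser and stronger towards the 3′ end. Where a summit lay in several coding genes (178 peaks) the longest was taken as the host. The first tercile (by length) of the host gene held 31.2 peaks per Mb of eligible sequence, the middle tercile 35.8 and the last tercile 40.5. The replicate 1 list gave 31.2, 35.3 and 40.3, and the replicate 2 list 31.7, 36.3 and 41. Median signal was 62.3 in the first tercile, 71.2 in the middle and 93.0 in the last. The strongest quintile of the list made up 14.9% of the peaks of the first tercile and 23.6% of those of the last. By deciles of the host length, density ran from 28.4 per Mb in the first to 42.03 per Mb in the last. Median signal ran from 62.9 to 103. The bins do not hold the same hosts. Sequence within 10 kb of a coding start is left out, which removes more of the early bins in short hosts. Of motifs with 1 host strand, hosts of 10 to 50 kb gave 119 of 1872 in the first tercile. In the last tercile they gave 1018 of 3902. These hosts held 45.6 peaks per Mb at a median signal of 88.0. The part of host length in the rise along the gene was not tested. In windows of 46% GC or more the densities of the terciles were 50.6, 60.4 and 65.4 per Mb, and in windows of 42 to 44% GC they were 31.96, 32.9 and 34.5. Below 38% GC, with 66 to 76 peaks per tercile, they were 12.9, 9.02 and 11.5 per Mb, with no rise towards the end. Median signal did not rise there either, at 132, 72.9 and 128 from the first tercile to the last. In windows of 46% GC or more it was 61.8, 68.6 and 99.7.

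**Figure D4:**
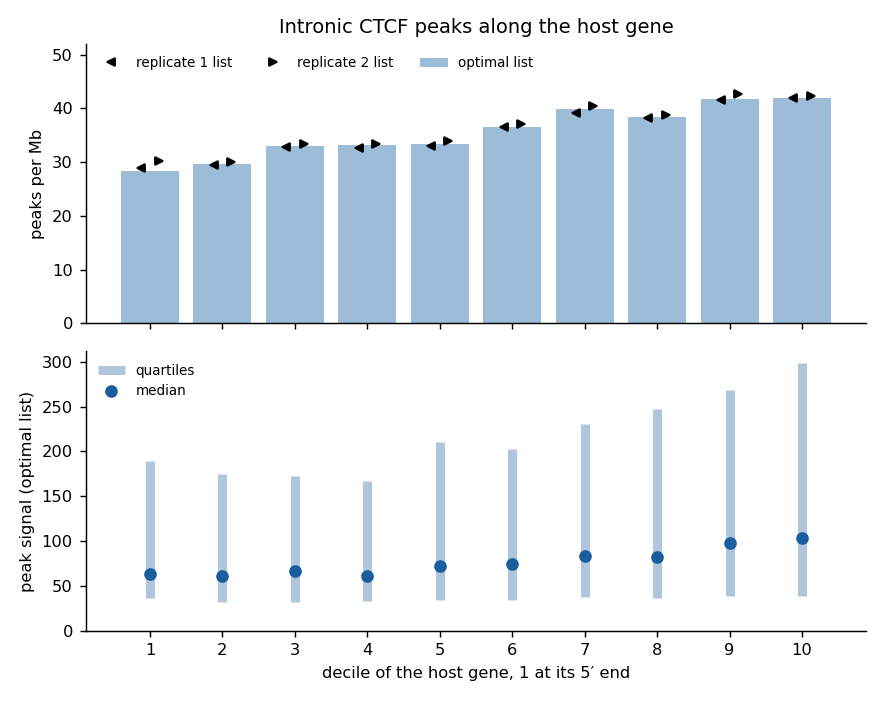
Peak density (top, peaks per Mb of eligible sequence) and peak signal (bottom, median and quartiles in the optimal list) by decile of the host gene, counted from its 5′ end; triangles give the density from each replicate list. Density runs from 28.4 to 42.03 per Mb and median signal from 62.9 to 103 from the first decile to the last. The deciles do not hold the same hosts.

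Density and signal also rose with intron rank, up to introns 6 to 10. Ranks were counted in 1 principal coding transcript per host, and 903 peaks lay outside the introns of that transcript. Intron 1 held 2143 peaks, 15.5% of all, at 31.8 per Mb, with a median signal of 56.6 and a motif in 67.7%. Intron 2 held 33.7 per Mb and intron 3 held 35.4 per Mb, with median signals of 62.6 and 72.0. Introns 6 to 10 had the highest density, 40.2 per Mb, with a median signal of 93.6 and a motif in 77.0%. Introns ranked 11 and over had 38.5 per Mb and a median signal of 91.4. In the last intron of the transcript, 1048 peaks gave 34.9 per Mb, against 36.5 for all other positions, at a median signal of 89.7 against 74.9.

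Density also differed by intron length, by distance to an exon and by host length. How these lengths go with intron rank and position was not tested. Introns under 5 kb held 44.4 peaks per Mb at a median signal of 95.6, and introns of 100 kb or more held 24.1 per Mb at 54.3. Within 500 bp of an exon the density was 41.7 per Mb with a median signal of 101.2, and more than 20 kb from every exon it was 23.4 per Mb with a median of 59.7. Density was not highest next to the exon, at 43.3 per Mb at 500 to 1000 bp and 42.2 per Mb at 1000 to 2000 bp. Host genes of 10 to 50 kb held 45.6 per Mb and those of 250 to 300 kb held 28.9 per Mb. In windows of 46% GC or more the same host lengths gave 69.2 and 50.1 per Mb, and in windows of 42 to 44% GC 40.01 and 28.9. Below 40% GC the shortest hosts were not the densest, at 11.6 per Mb in the band of 38 to 40% against 17 per Mb for the longest. The median position was 0.60 of the host length from the 5′ end, the median distance to a coding start 26934 bp and to an exon 1757 bp, and the median host length 99972 bp.

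The edges of the rule showed no step in signal at the distance limit. The 1159 peaks at 10 to 12 kb from a start had a median signal of 74.7 and a motif in 74.8%, and 1336 intronic peaks at 8 to 10 kb, just outside the rule, had 80.8 and 74.5%. At the length limit, hosts of 250 to 300 kb gave a median of 77.7 with a motif in 73.0%, and hosts of 300 to 350 kb, outside it, gave 67.2 with 64.5%. A start of an annotated transcript not classed as protein-coding lay within 1 kb of 777 peaks, with a median signal of 91.6, and 8165 peaks lay more than 10 kb from every annotated start of either kind.

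The direction of the motif changed with the position along the gene. Over 9378 motifs whose hosts lie on 1 strand, 48.1% (exact 95% interval 47.0 to 49.1) were on the host's own strand, here called sense. In the first tercile 55.0% were sense (52.7 to 57.2), in the middle 48.9% and in the last tercile 43.95% (42.4 to 45.5). The first tercile exceeded the last by 11.02 percentage points, by 11.7 in the replicate 1 list and by 10.8 in the replicate 2 list. The difference had the same sign on 18 of 18 autosomes other than chromosome 1, from 1.28 to 22.3 points. It was 10.6 points in hosts on the plus strand and 11.5 points in hosts on the minus strand. By intron rank the share did not fall in the same way. It was 48.7% in intron 1 (45.9 to 51.4), 42.05% in intron 2 (39.1 to 45.0), 43.6% in intron 3, 47.1% in introns 4 to 5, 48.5% in introns 6 to 10 and 50.5% in introns ranked 11 and over (48.3 to 52.6). Peaks outside the introns of the principal transcript stood at 57.4% (53.2 to 61.6). Motif orientation along the gene was not particular to these introns, since genes of 300 kb or more gave 54.3% in the first tercile and 42.01% in the last.

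Among the strongest peaks the difference was widest. In the strongest quintile, 65.9% (60.8 to 70.7) of 372 motifs of the first tercile were sense, against 37.5% (34.7 to 40.4) of 1131 in the last tercile. In the second quintile the shares were 54.2% and 43.1%, and in each of the 3 weaker quintiles the difference was under 4 points with overlapping intervals. The middle tercile of the weakest quintile stood at 55.8% (51.5 to 60.1). The difference between first and last tercile was also larger in longer hosts: 49.6% against 49.5% in hosts of 10 to 50 kb, 58.6% against 38.9% in hosts of 200 to 250 kb, and 56.8% against 37.6% in hosts of 250 to 300 kb. The site of Lrrc28, the strongest sense motif of a first tercile, is printed to set beside that of Fam129b, the strongest antisense motif of a last tercile. It lies at chr7:67631028-67631066 on the minus strand, the strand of Lrrc28, 10.8% of the way along the gene, with signal 606 (312 in the replicate 1 list and 297 in the replicate 2 list).
Lrrc28: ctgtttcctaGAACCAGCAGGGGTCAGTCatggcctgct

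**Figure D5:**
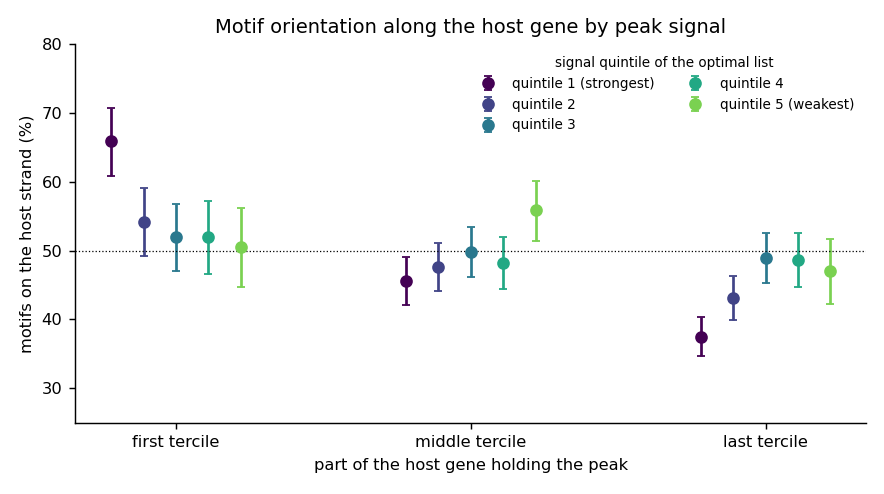
Share of motifs on the strand of the host gene (y axis, percent, with exact 95% binomial intervals) in peaks of the first, middle and last tercile of the host (x axis), with 1 point for each quintile of the optimal list's signal. In the strongest quintile the share is 65.9% in the first tercile and 37.5% in the last, and in the weakest quintile it is 50.5% and 47.0%.

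Within a single host the order of strong motifs was a different matter. Among 394 hosts with at least 2 motifs of the strongest quintile, the outer pair pointed away from each other, antisense first and sense last, in 146 (37.1%, exact 95% interval 32.3 to 42.03). They pointed towards each other in 48 (12.2%, 9.12 to 15.8) and the same way in 200. Under 5 kb apart, 21 of 75 pairs pointed away and 6 towards each other. At 5 to 20 kb, 70 of 138 pointed away and 11 towards, and at 20 to 100 kb, 54 of 155 pointed away and 20 towards. At 100 kb or more, 1 of 26 pointed away and 11 towards. So the first strong motif of such a host was sense in 35.03% and the last in 59.9%, while the position along the gene kept its own relation: among first motifs, 55.0% of those in the first tercile and 17.6% of those in the last tercile were sense, and among last motifs 90.0% (of 30) and 52.6%. In hosts with 1 strong motif the shares were 67.3% in the first tercile and 34.2% in the last. Over neighbouring motifs of any signal, 5152 pairs in 1 host, 22.6% pointed towards each other and 23.0% away. The shares towards and away were 24.3% and 27.5% under 1 kb apart, 19.9% and 24.3% at 1 to 5 kb, and 21.5% and 24.8% at 5 to 20 kb. They were 25.03% and 20.05% at 20 to 100 kb, and 33.3% and 8.33% over 96 pairs at 100 kb or more. Loops were not measured.

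The 15 strongest intronic peaks ran from 582 to 677 in signal, from 307 to 363 in the replicate 1 list and from 261 to 318 in the replicate 2 list. A motif was present in 14 of them, on the antisense strand in 10 and the sense strand in 4, and all 9 in the last tercile of their host were antisense. The first of the whole optimal list lay in Fam129b, in intron 5 of 13 and 74.3% along the gene, at signal 677 (363 and 318 in the replicate 1 and 2 lists). Sntb2, which encodes the membrane scaffold protein beta-2-syntrophin, had a peak of signal 643 (346 and 299) in intron 5 of 6. Col18a1, which encodes the basement membrane collagen type XVIII, had one of 617 (327 and 294), 16.8 kb from the nearest coding start. Cacna2d2, a subunit gene of voltage-gated calcium channels, had one of 603, and Th, the gene of tyrosine hydroxylase, one of 600.0 in an annotated record of 38.4 kb. Ncs1, a neuronal calcium sensor gene, had 593, and Phc2, a Polycomb gene, 589. Others were in Gm49486, 2900026A02Rik, Emid1, Lrrc28, Osbpl5 and Ppargc1b. Cfap43, at signal 582, was the one without a motif. The peaks of Col18a1, Th and Cfap43, 3 of the 15, lay outside the introns of their host's principal transcript.

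Most coding genes with eligible sequence held such a peak. Of 9519 genes with at least 1 kb of it, 5172 were hosts, 54.3%. A single peak was present in 2145 of them, at least 5 in 796 and at least 10 in 120. The share of hosts followed length, from 35.4% of genes of 10 to 50 kb to 71.0% of those of 50 to 100 kb and 96.3% of those of 250 to 300 kb. Zmiz1, a transcriptional coregulator gene of 208 kb, held the most, 25 peaks, of signal 9.70 to 440, 14 of them in both replicates. Kif6, a kinesin gene, held 20 with 19 in both replicates, Skap1, a T cell adaptor gene, 20 with 17 in both, and Sh3pxd2a, a podosome scaffold gene, 20 with 12 in both. Mthfd1l, of mitochondrial folate metabolism, had 19, of which 6 had a motif, whereas 18 of the 20 of Skap1 did. Dnah8, Fndc3b and Jazf1 had 18 each, and Ctif and Igsf21 17 each. These counts take every summit, also those close together, as in Sh3pxd2a and Ctif. Over all hosts, 159 of the intronic peaks had another optimal summit within 300 bp. Of these, 28.7% had a motif and 37.1% were in both replicates.

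Per length, the densest hosts of at least 50 kb had little eligible sequence. Nfic, a nuclear factor I gene, had 2 peaks in 4.63 kb, Mrpl33 3 in 7.32 kb, Slc37a1 6 in 15.9 kb, Kcnt1 2 in 5.44 kb and Actn4 4 in 11.6 kb. At the other end, genes with long introns and no peak were led by Bank1, a B cell scaffold gene, with 255 kb of eligible sequence. Angpt1, the ligand angiopoietin 1, had 238 kb with none, Mmp16, a membrane metalloproteinase gene, 227 kb, C130026I21Rik 214 kb and Kctd8 204 kb.

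The gene lists below, of stomach cell types first, are read against 54.3% of all eligible genes, against 36.4 peaks per Mb, and against the median eligible sequence of each list, since longer genes are hosts more often. In the list of stomach mesenchyme and smooth muscle, 10 of 16 eligible genes were hosts, with 43.0 peaks per Mb and a median of 54.1 kb eligible. Mylk, the myosin light chain kinase gene, held 16 peaks, the strongest at 484 (259 and 226 in the replicate 1 and 2 lists). Myh11, the smooth muscle myosin heavy chain gene, held 4, the strongest at 475 (269 and 206), and Pdgfrb, a receptor gene of mural cells, 5, up to 469. Myocd, the coactivator of the smooth muscle programme, had none in 45.1 kb, and Pdgfra none in 20.005 kb.

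Signalling genes of the hedgehog, BMP, Wnt and FGF pathways were hosts in 25 of 31 cases, at 50.8 peaks per Mb and a median of 50.2 kb eligible, where all genes of 50 to 100 kb, with a median of 42.2 kb eligible, were hosts in 71.0%. Smad6, an inhibitor of BMP signalling, held 11 peaks, the strongest at 413 and the median at 57.7, and all 6 of its motifs were antisense. Sufu, which restrains the hedgehog pathway's Gli factors, held 6, up to 408, and Apc, which restrains Wnt signalling, 3, up to 404. Smad2 held none in 30.96 kb, and Fzd6 none in 18.3 kb.

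Of glandular epithelium genes 11 of 16 were hosts, at 43.6 per Mb and a median of 19.1 kb eligible. Slc26a9, an anion transporter gene of the gastric surface, held 2 peaks, one of them at 521 (293 and 230), and Cdh1, the E-cadherin gene, 7, the strongest at 407 (218 and 191). Lrig1, a marker of stem cells, held 6, up to 412, while Gata6, with 20.7 kb eligible, and Chia1, with 7.51 kb, held none. Of forestomach squamous genes 11 of 15 were hosts, at 43.8 per Mb and a median of 25.9 kb. Grhl1, Evpl and Pkp1, of the epidermal barrier and desmosomes, had peaks of 398, 388 and 380. Trp63, the master factor of squamous epithelium, had no peak in 170 kb of eligible sequence, and Dsc3 none in 25.9 kb.

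Enteric neuron and glia genes were hosts in 9 of 13 cases, at 29.3 per Mb and a median of 40.6 kb. Ret, the receptor of the enteric neural crest, had 1 peak, at 525 (295.9 and 230.7), Nos1, the neuronal nitric oxide synthase gene, 10, up to 369, and Ncam1 9, up to 328. Gdnf, the Ret ligand, had none in 13.5 kb, and Ednrb none in 15.8 kb. Endothelial genes were hosts in 11 of 16 cases, at 34.3 per Mb and a median of 68.2 kb, with Flt1 at 10 peaks, Vwf at 6 and Nrp1 at 2, and none in Kdr (27.4 kb eligible) or Mef2c (59.2 kb). Genes of blood and immune cells were hosts in 11 of 13 cases, at 39.5 per Mb and a median of 71.4 kb, with Pax5 at 5 peaks, Ptprc at 2 and Syk at 1, and none in Spi1, with 1.36 kb eligible, or Vav1, with 35.5 kb.

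In the list of liver and pancreas 9 of 15 were hosts, at 29.1 per Mb and a median of 17.4 kb. Hnf4a held 3 peaks up to 458, all outside the introns of its principal transcript. Cps1 held 3 and Afp 1, and Abcc8, with 29.4 kb eligible, held none. Extracellular matrix genes were hosts in 26 of 34 cases, at 47.2 per Mb and a median of 54.2 kb. Beside the 8 peaks of Col18a1, Fbln1, of fibulin 1, held 9, up to 553 (311 and 246), and Col4a1 1, at 496 (273 and 222); Col12a1 held none in 76.96 kb. Actin and adhesion genes were hosts in 25 of 26 cases, at 52.6 per Mb and a median of 68.3 kb. All genes of 50 to 100 kb, with a median of only 42.2 kb eligible, gave 71.0%. Those of 100 to 150 kb, with a median of 87.4 kb eligible, gave 87.4%, and those of 250 to 300 kb 96.3%. Diaph1, a formin gene, held 5 peaks of a median signal of 404, Tjp1, of tight junctions, 8, and Itga1, an integrin gene, 4, and Tln1, with 2.74 kb eligible, held none. Genes of CTCF and cohesin were hosts in 9 of 14 cases, at 33.0 per Mb and a median of 27.8 kb, with Smc1b and Pds5b at 2 peaks each and Zfp143 at 1, and none in Rad21 (15.7 kb eligible) or Wapl (30.4 kb).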

How the data were processed

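CTCF ChIP-seq of 2 replicates of newborn mouse stomach was analysed from 5 peak lists on mm10. Per the labels, both replicates derive from 1 donor. The deposited lists give each peak a signal, a narrowPeak score and a −log10 q-value, all made by the authors. Per the file descriptions deposited with them, the optimal and conservative lists were thresholded by IDR (irreproducible discovery rate). For the aligner, the peak caller and their thresholds the sources used here give nothing, and depth is unknown. The replicate lists hold 300000 peaks each, so their strongest 74283 were used, as many as optimal peaks on chromosomes. Summits were placed on GENCODE release M21 and GRCm38, which share coordinates with mm10. Density is peaks per Mb of sequence that meets the rule, gaps left out. The motif matrix had 19 positions, learned from 994 of 1000 chromosome 1 peaks. Principal transcripts were chosen by APPRIS rank, then spliced length. Python 3.11.15, numpy 2.4.6, pandas 2.3.3, scipy 1.17.1 and matplotlib 3.10.9 were used, and scripts were checked on simulated data. No test was made, since there is 1 group and peaks are not replicates. Members and gene lists were chosen with earlier results of these data known. Named genes are hosts of the 15 strongest peaks, the 10 with most peaks, the 5 densest of at least 50 kb, the 5 with most eligible sequence and no peak, and in each gene list up to 3 with the strongest peaks and up to 2 without any. Some genes that this rule selects are not reported here. Control libraries were not analysed here.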

Additional observations from a re-analysis of the deposited data

Results flagged for a closer look

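Peaks below the authors' threshold also carried the motif in shorter-gene introns. Outside chromosome 1, the relaxed list of both replicates together held 43764 peaks that met the position rule and had no optimal peak within 300 bp. A CTCF motif was present in 14.99% of them (exact 95% interval 14.6 to 15.3), against 1.59% in windows 1 kb away. Their median signal was 6.73. Of the 9549 found in the relaxed list of each replicate, 32.8% had the motif. These peaks enter no comparison above, and how many are bound sites was not tested.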

How the results depend on the processing

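Among the values recomputed, no direction reversed under the alternatives run other than the GC bands. Most of these values moved by more than the SD of the 2 replicate lists, which is small. The order of signal and motif share against longer genes and outside genes was not recomputed with other starts or exons. Motif direction by tercile was not recomputed with them either. The comparisons of repeats, of the letters CAGAT and of pairs of strong motifs were not among the values recomputed. The number of intronic peaks was 6884 in the stronger 50% by signal and 8165 with starts of all transcripts, and 17287 with starts of coding gene records. Host genes numbered 3767, 3467 and 5979 in the same order, against 5172. The counts of 3767 and 5172 take only hosts with at least 1 kb of eligible sequence, and those of 3467 and 5979 take every host. Their density was 35.7 per Mb in the conservative list, 18.1 in the stronger 50%, 38.4 with gene records and 32.9 with starts of all transcripts. The ratio to longer-gene introns was 2.19 in the stronger 50% and 1.96 with starts of all transcripts, and 2.05 to 2.09 in single replicate lists. The ratio to sequence outside genes was 2.04 (conservative list), 1.93 (stronger 50%), 2.14 (gene records), 2.09 (all transcripts) and 2.04 (coding exons alone), and 2.05 in both replicate lists. Within GC bands it is given above. Median signal was higher than outside genes below 38% GC (104 against 70.5) and at 38 to 40% GC (92.3 against 87.4). Below 38% GC it was also slightly higher in the first tercile than in the last (132 against 128). Below 38% GC the first tercile was denser than the last (12.9 against 11.5 per Mb) and hosts of 10 to 50 kb less dense than those of 250 to 300 kb (6.03 against 9.90), as they were at 38 to 40% GC (11.6 against 17 per Mb). Median signal was 224 in the stronger 50% and, each on its own scale, 31.4 to 44.5 in the replicate lists. The motif share was 73.9% (conservative list), 86.1% (stronger 50%), 72.2% (gene records), 72.4% (all transcripts), 26.7% at the score met by 0.1% of windows, 60.7% with 100 bp on either side, where the score needed is higher, and 72.5 to 73.2% in replicate lists. The sense share was 48.3% (conservative list), 46.7% (stronger 50%), 47.9% (gene records), 47.4% (all transcripts), 48.1% (coding exons alone), 47.2% (stricter score) and 48.0 to 48.1% in replicate lists. Intron 1 held 15.4% (conservative list), 12.3% (stronger 50%), 16.9% (gene records), 19.1% (all transcripts), 16.9% with the longest transcript and 15.5 to 15.6% in replicate lists. The density ratio of first to last tercile was 0.765 (conservative list), 0.617 (stronger 50%), 0.792 (gene records), 0.820 (all transcripts), 0.773 (coding exons alone), 0.774 (shortest host) and 0.773 to 0.774 in replicate lists. In the stronger 50% 99.97% were in both replicates. The excess of sense motifs in the first tercile over the last was 12.8 points without repeats, 16.1 at the stricter score and 10.8 to 11.7 in replicate lists; these alternatives and the GC bands were chosen after seeing the data. The cause of these shifts was not tested. No paired analysis was possible because there is 1 group. Depth is unknown, so no limit of detection can be given, and weak peaks are the least certain.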

Other observations

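The letters of the motif itself differed little between intronic and extragenic sites. Over the 19 positions, the share of sites with the commonest letter differed most at position 12, where G was present in 69.3% of the motifs of shorter-gene introns and in 63.6% of those outside genes. At position 1, T was present in 31.8% of the intronic motifs and 36.9% of those outside genes. At positions 5, 10 and 13 the shares were within 0.2 points of each other.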
